A study of Rattus norvegicus with 56 samples.

Results

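The SR proteins are splicing factors that carry a domain rich in serine and arginine, and the 10 genes described here are Srsf1, Srsf2, Srsf3, Srsf4, Srsf5, Srsf6, Srsf7, Srsf9, Srsf10 and Srsf11, out of 32883 gene identifiers in the expression tables. They were taken by symbol as a gene family, but Srsf3 was chosen by its rise in obstructed thick ascending limb at 3 h, so its values in that comparison, and in every contrast that contains those libraries, are given as a description with no test. Srsf8 was at 0 in every library and Srsf12 did not exceed 0.88 TPM in any, and neither is counted among the 10.

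SR proteins bind short exonic sequences in pre-mRNA through RNA recognition motifs and, through the serine- and arginine-rich domain, help the U1 particle and the U2AF factor to find the splice sites. Kinases of the SRPK and CLK families phosphorylate that domain, which controls entry into the nucleus and release from nuclear speckles. Several members also leave the nucleus with the mRNA and hand it to the export receptor Nxf1. SR genes hold very conserved exons whose inclusion brings a premature stop codon, so the transcripts that include them are substrates of nonsense-mediated decay. In the kidney they act in every tubule cell type as part of the general splicing machinery.

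RNA came from kidney tubules of male Sprague-Dawley rats after unilateral ureteral obstruction (UUO), in which the ureter on the left side was tied off, or after a sham operation that exposed it and did not tie it. Cortical thick ascending limb (cTAL) and cortical collecting duct (CCD) were dissected 30 min and 3 h after surgery, which gave 8 groups, sham and UUO for each segment and time, with 4 numbered replicates each. The rats carried no transgene or deletion that the labels name, and each CCD replicate was read in 2 libraries, averaged here as 1 replicate, so that 48 libraries were used. The labels do not say that the numbers are separate rats, so the p-values below measure the spread between numbered samples, which could be partly technical.

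All values are deposited TPM, transcript abundances corrected for length and scaled to a fixed total, so levels of different genes within a table can be set side by side. TPM keep no record of sequencing depth, so no counting interval or detection limit is given. Each library had 8744 to 11916 genes with at least 1 TPM at 30 min, and 9585 to 10750 at 3 h, and 0 pairs of libraries held identical values. The segment labels matched their defining genes: Aqp2, the water channel of principal cells, was at 1733 to 11318 TPM in CCD replicates and at 0.11 to 361 TPM in cTAL replicates, the highest being cTAL sham replicate 1 at 3 h. Umod, the uromodulin gene of the thick ascending limb, was at 28439 to 66397 TPM in cTAL replicates and at 15.1 to 9364 TPM in CCD replicates. At 3 h, 2 CCD sham libraries and 1 CCD UUO library exceeded 5000 TPM of Umod. Values at 30 min and 3 h come from separate tables, so levels are not compared between the times.

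The start regions of Srsf3 and of Srsf7, its close relative in the family, are printed below. Srsf3 is the member chosen by its rise in cTAL at 3 h. The regions are those of RefSeq for the rat build GRCr8, 250 bases before each annotated start, both on the + strand. The capitals mark exact matches to 4 promoter motifs searched on both strands, the GC box (GGGCGG), the CCAAT box (CCAAT), the TATA box (TATAAA) and the cyclic AMP response element (TGACGTCA).
Srsf3 at chr20:7093335-7093584: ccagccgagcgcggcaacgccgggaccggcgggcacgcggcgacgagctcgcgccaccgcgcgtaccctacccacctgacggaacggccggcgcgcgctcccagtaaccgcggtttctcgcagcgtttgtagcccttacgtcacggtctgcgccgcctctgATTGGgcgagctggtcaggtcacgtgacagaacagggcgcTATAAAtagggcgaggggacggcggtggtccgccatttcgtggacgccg
Srsf7 at chr6:20563802-20564051: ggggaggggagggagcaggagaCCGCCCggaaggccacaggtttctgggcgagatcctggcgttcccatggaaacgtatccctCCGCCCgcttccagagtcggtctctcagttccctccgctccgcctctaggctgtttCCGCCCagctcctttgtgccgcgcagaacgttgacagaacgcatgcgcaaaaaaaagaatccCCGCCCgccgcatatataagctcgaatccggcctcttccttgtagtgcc
The Srsf3 window held 1 CCAAT box on the reverse strand 89 bases before the start and 1 TATA box 49 bases before it, with none of the other 2 motifs. The Srsf7 window held 4 GC boxes on the reverse strand, 228, 167, 111 and 49 bases before the start, and none of the other 3 motifs. Among 33465 rat promoters of the same length, 34.0% held a CCAAT box, 12.9% a TATA box, 30.5% a GC box and 1.59% a cyclic AMP response element. The windows had a GC content of 69.6% for Srsf3 and 61.2% for Srsf7, against a median of 51.2% over all promoters. A match is a description of letters only. All 10 members had a RefSeq promoter entry. RefSeq lists 10 pseudogene records named after Srsf3, 7 of Srsf7, 3 of Srsf10, 2 of Srsf6 and 1 of Srsf5, and how reads were shared with such copies is not given in the sources used here, which leaves the levels of these 5 genes less certain.

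In both segments and at both times the family was dominated by the same 3 genes. Srsf3 and Srsf7, which shuttle between nucleus and cytoplasm and act as adaptors for mRNA export, and Srsf5, known in regenerating rat liver as an insulin-induced early gene, held the first 3 ranks in all 8 groups. Together they made up 69.5% of the summed SR TPM in CCD sham at 30 min, the lowest group mean, and 82.8% in cTAL sham at 30 min, the highest. The sum over the 10 genes was 862 ± 94.8 TPM (SD, n = 4) in CCD sham and 587 ± 44.5 TPM in cTAL sham at 30 min. At 3 h it was 915 ± 119.8 TPM (SD, n = 4) in CCD sham and 522 ± 61.0 TPM in cTAL sham.

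The order within the leading trio differed by segment and time. In CCD sham at 30 min, Srsf3 led with 260.2 ± 42.5 TPM, Srsf5 followed with 202 ± 15.1 TPM and Srsf7 with 137 ± 17.7 TPM (SD, n = 4), and the replicates of Srsf3 and Srsf5 overlapped while those of Srsf5 and Srsf7 did not. In cTAL sham at 30 min, Srsf5 led with 194 ± 9.84 TPM, overlapping Srsf3 at 185 ± 20.5 TPM, and both lay above Srsf7, whose replicates ran from 90.0 to 125 TPM. At 3 h Srsf7 had the highest mean in sham, 232 ± 23.9 TPM for CCD and 151 ± 3.02 TPM for cTAL. Over the whole order of the 10 genes, the trio included, 5 to 8 of the 9 neighbouring pairs overlapped in each group. Srsf4, one of the longest SR proteins, or Srsf1, the founding member of the family, had the lowest level in every group. Srsf4 averaged 4.29 TPM in cTAL sham at 30 min and 5.11 TPM at 3 h, and Srsf1 averaged 10.7 TPM in CCD sham at 3 h.

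Spread between replicates also differed by member. The coefficient of variation, the SD as a percent of the mean, had a median over the 8 groups of 11.7% for Srsf7, 12.3% for Srsf3, 19.2% for Srsf5 and 21.0% for Srsf10. It was 27.5% for Srsf4, 28.0% for Srsf1 and 29.3% for Srsf2. The widest were Srsf11 at 33.5%, Srsf6 at 40.7% and Srsf9 at 50.0%. Srsf6, a relative of Srsf4 and Srsf5, Srsf9, a short SR protein known as SRp30c, and Srsf11, an SR-related protein that binds U2AF, were high or low in the same single cTAL replicates. In UUO replicate 4 at 30 min they stood at 52.5, 31.6 and 31.2 TPM, the highest of their group in each case. In sham replicate 4 at 3 h they stood at 10.4, 8.81 and 7.08 TPM, and in UUO replicate 1 at 3 h at 14.7, 9.20 and 18.2 TPM, each the lowest of its group. Other members shared part of this. In UUO replicate 4 at 30 min Srsf1, Srsf2, Srsf4 and Srsf10 also had their highest value, at 22.7, 14.4, 6.57 and 23.4 TPM. In sham replicate 4 at 3 h Srsf1, Srsf4, Srsf5 and Srsf10 also had their lowest, at 3.42, 4.0, 90.1 and 19.1 TPM. Srsf4 was also lowest in UUO replicate 1 at 3 h, at 3.41 TPM, while Srsf3 and Srsf7 did not follow in these replicates. Changes of Srsf6, Srsf9 and Srsf11 in cTAL were therefore measured with a wide error.

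**Figure D1:**
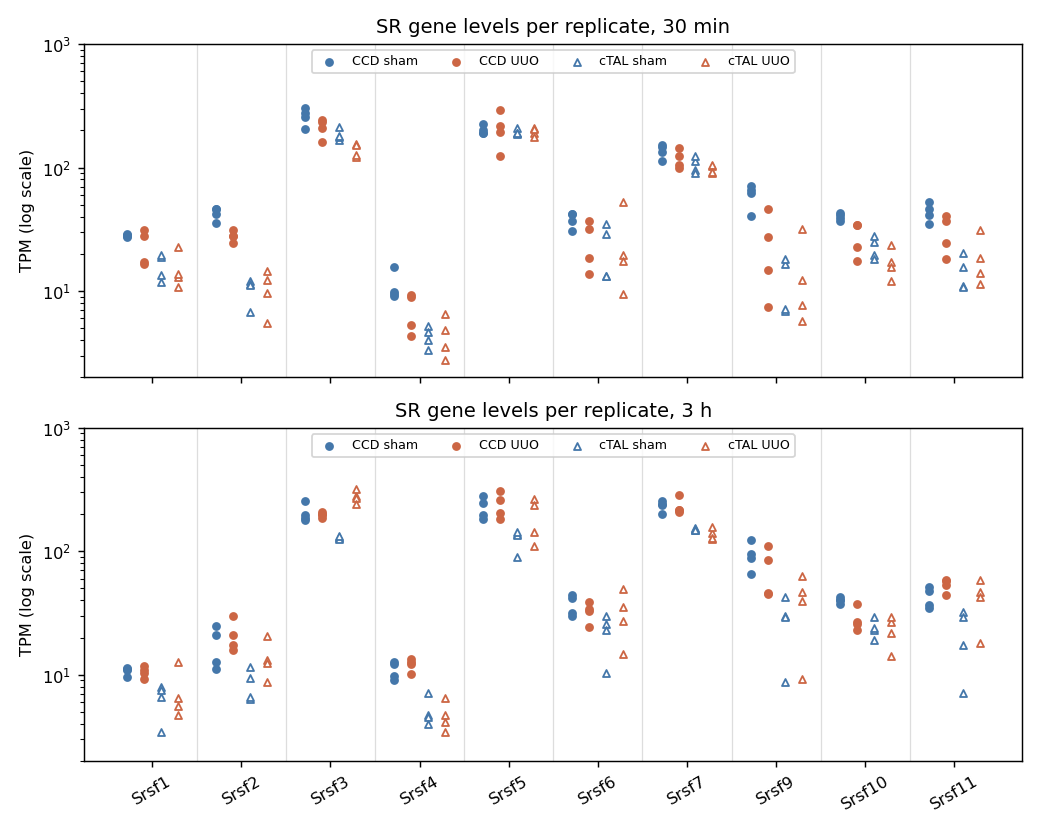
Levels of the 10 SR genes in TPM (log axis) in the 8 groups, 1 point per replicate (circles CCD, triangles cTAL). Srsf3, Srsf5 and Srsf7 sit above the other 7 genes in every group, and Srsf4 or Srsf1 is lowest.

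In obstructed cTAL at 3 h the SR gene with the largest difference from sham was Srsf3, the smallest SR protein, which acts in exon choice, in the choice of polyadenylation site and in mRNA export. Srsf3 was at 128, 130, 125 and 132 TPM in sham replicates 1 to 4 and at 280, 321, 268 and 243 TPM in UUO replicates 1 to 4. Every UUO value was above every sham value, and the sham values lay close together. The group means were 129 ± 3.23 TPM in sham and 278 ± 32.5 TPM in UUO (SD, n = 4), a difference of 1.10 on the log2(TPM + 1) scale (SE 0.12), or 2.14-fold. Since Srsf3 was selected on this difference, it carries no test here. The range, rescaled value and rank below only describe the selected value and give it no support. The difference was 1.03 to 1.16 when any 1 replicate was left out, and 1.26 after median-of-ratios rescaling. That rescaling moved the median of all genes from -0.12 to 0.02. Among all genes tested in this comparison, 94.1% had a lower log2 change than Srsf3.

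In bulk tubules, fewer cells of a type and less RNA per cell cannot be told apart. Other cell types' genes moved in the same libraries: 9 proximal tubule markers summed to 505 to 1108 TPM in cTAL sham and 1372 to 2994 TPM in cTAL UUO at 3 h, with Slc5a12 at 0 in all sham replicates. The 4 red blood cell markers summed to 29.8 to 3161 TPM in sham and 1834 to 11334 TPM in UUO. The 6 thick ascending limb markers summed to 36659 to 62464 TPM in sham and 32069 to 36558 TPM in UUO, and 7 macrophage markers to 1781 to 2588 and 1020 to 1932 TPM, with none of these at 0 throughout. The 5 endothelial markers summed to 63.2 to 364 TPM in sham and 54.8 to 91.7 TPM in UUO, with Cdh5 at 2.79 to 4.57 and 0 to 1.95 TPM. Their part in the Srsf3 difference was not tested.

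**Figure D2:**
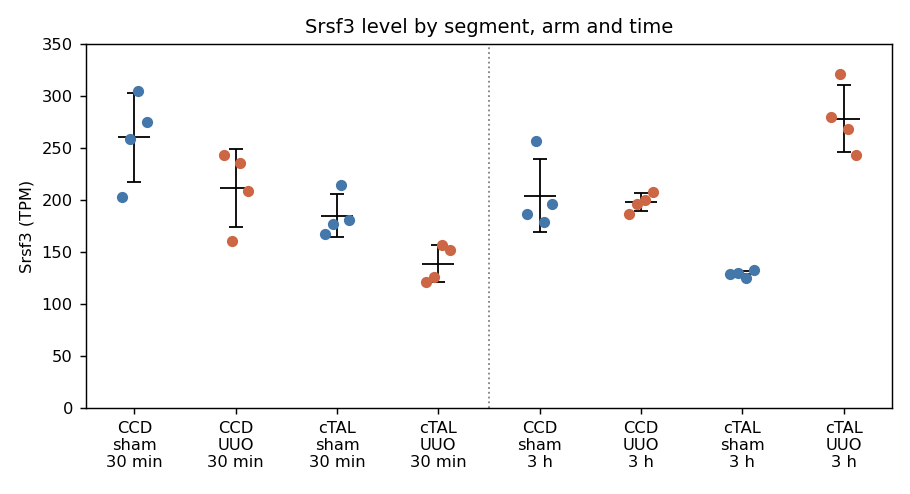
Srsf3 level in TPM in the 8 groups, 1 point per replicate, with a dash at the mean of 4 replicates and bars of 1 SD. In cTAL at 3 h the UUO replicates lie at 243 to 321 TPM, above sham replicates at 125 to 132 TPM, while in cTAL at 30 min the UUO replicates lie below sham.

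The other 9 SR genes did not pass the test in cTAL at 3 h. Of them 0 were called at an adjusted p under 0.05 with limma, where 11.7% of all 10023 genes tested were called. Likewise 0 had an unadjusted p under 0.05, where 28.4% of all genes tested had one. The lowest adjusted p was 0.204, for Srsf11. Srsf11 was at 32.5, 29.5, 17.5 and 7.08 TPM in sham and at 18.2, 47.0, 58.1 and 42.4 TPM in UUO. Its arms overlapped because UUO replicate 1 lay among the sham values, and the log2 change was 0.99 (SE 0.48). The median log2 change of these 9 genes was 0.41, against -0.12 over all genes tested. None of the 9 had arms without overlap, where 19.8% of all genes tested did.

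Srsf7, set beside Srsf3, had no called change. Its levels in cTAL at 3 h were 148, 152, 154 and 149 TPM in sham and 141, 127, 158 and 129 TPM in UUO. These arms overlapped, with a log2 change of -0.13 (SE 0.12, limma adjusted p = 0.523). Srsf3, chosen on these values, made up 25.0% of the summed SR TPM in sham and 36.8% in UUO. Srsf7 made up 29.3% in sham and 18.5% in UUO, all as group means of 4 replicates. The sum itself averaged 522 TPM in sham and 767 TPM in UUO, so the share of a gene can fall without a fall in its level. Srsf5 was at 138, 135, 143 and 90.1 TPM in sham and 144, 265, 236 and 111 TPM in UUO, a log2 change of 0.51 (SE 0.28, limma adjusted p = 0.256). Its sham replicate 4 and UUO replicate 4 were both low, and the arms overlapped.

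The remaining members at 3 h in cTAL had log2 changes from -0.11 to 0.60. Srsf2 was at 6.42, 9.49, 11.5 and 6.61 TPM in sham and 13.1, 12.4, 20.4 and 8.67 TPM in UUO, a log2 change of 0.60 (SE 0.30, limma adjusted p = 0.224). Only UUO replicate 4 fell within the sham range. Srsf6 changed by 0.46 (SE 0.40) and Srsf9 by 0.41 (SE 0.60) on the log2 scale, with the low replicates named above in both arms. Srsf1 at 0.15 (SE 0.36), Srsf10 at -0.08 (SE 0.25), an SR protein that represses splicing when it is dephosphorylated, and Srsf4 at -0.11 (SE 0.29) lay near 0. None of these 6 passed the test.

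At 30 min in cTAL no SR gene was called. Of all 10993 genes tested, 1 was called (0.0091%), and 250 had an unadjusted p under 0.05. Srsf3 was at 167, 177, 214 and 181 TPM in sham and at 121, 126, 156 and 151 TPM in UUO. Every UUO value lay below every sham value, the opposite order to that at 3 h. The log2 change was -0.41 (SE 0.13, limma adjusted p = 1.00). Srsf3 was the only member without overlap of its arms, where 1.72% of all genes tested had none, and the only one with an unadjusted p under 0.05. Srsf10 came next at -0.40 (SE 0.22), with 19.6, 18.2, 24.9 and 27.6 TPM in sham and 12.1, 17.3, 15.7 and 23.4 TPM in UUO. Its UUO replicate 4 lay inside the sham range. The other 8 members changed by -0.11 to 0.31 on the log2 scale, each with a limma adjusted p of 1.00, and the median over the 10 was -0.01, against -0.07 over all genes.

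In CCD at 30 min the 10 SR genes all had log2 changes below 0, in a comparison where only 13.7% of all genes tested had a change above 0. None was called with limma, and Srsf9 and Srsf10 were the 2 with an unadjusted p under 0.05. Of 11369 genes tested, 3 were called (0.0264%), and 1789 had an unadjusted p under 0.05. The median log2 change was -0.47 for the members and -0.31 over all genes tested. The UUO libraries held fewer genes at 1 TPM or more, 8744 to 11189 against 11257 to 11916 in sham, and mitochondrially encoded genes took a median of 22.6% of their TPM, against 17.8% in sham. Their part in the lower SR values was not tested. When TPM were rescaled by median of ratios, which brought the median of all genes to -0.08, Srsf5 moved to 0.25 and Srsf7 to 0.07, and the other 8 members kept a change below 0.

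Srsf9 had the largest difference of the family in CCD at 30 min. It was at 40.4, 66.0, 62.3 and 70.4 TPM in sham and at 7.45, 14.9, 27.2 and 46.6 TPM in UUO. The arms overlapped because UUO replicate 4 lay above sham replicate 1. The log2 change was -1.38 (SE 0.48, limma adjusted p = 0.276), and 0.809% of all genes tested had a lower change. Srsf2 was at 35.2, 46.4, 46.5 and 42.2 TPM in sham and 27.9, 31.4, 24.3 and 27.8 TPM in UUO, a log2 change of -0.37 (SE 0.17, limma adjusted p = 0.327). Srsf10 was at 36.6, 42.6, 38.7 and 41.3 TPM in sham and 17.7, 22.7, 34.0 and 34.2 TPM in UUO, a log2 change of -0.61 (SE 0.24, limma adjusted p = 0.292). For both genes all UUO values lay below all sham values, as was the case in either direction for 10.9% of all genes tested.

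The other 7 members overlapped between the arms of CCD at 30 min. Their log2 changes were -0.64 for Srsf6, -0.60 for Srsf4, -0.57 for Srsf11, -0.35 for Srsf1, -0.30 for Srsf3, -0.22 for Srsf7 and -0.05 for Srsf5. Srsf3 was at 203, 258, 304 and 275 TPM in sham and 243, 160.4, 235 and 208 TPM in UUO. Its UUO replicates 1, 3 and 4 lay within the sham range. Srsf1 was at 29.0, 28.2, 27.3 and 28.1 TPM in sham and 16.5, 17.1, 31.0 and 27.9 TPM in UUO, so that only UUO replicates 1 and 2 lay below the sham range. UUO replicates 1 and 2 were also the lowest 2 of their arm for Srsf4, Srsf6, Srsf9, Srsf10 and Srsf11.

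The levels of Srsf2 and Srsf9 depended on which of the paired CCD libraries was read. This comparison was chosen after the values were seen. In CCD sham at 30 min, Srsf2 was at 53.5, 66.6, 73.3 and 68.5 TPM in library 1 of replicates 1 to 4 and at 16.9, 26.1, 19.7 and 15.8 TPM in library 2. Library 1 was higher in 4 of 4 replicates and the values did not overlap, a log2 difference of 1.70 (SE 0.13, limma adjusted p = 8.76e-04). Srsf9 was at 62.8, 102, 83.8 and 92.1 TPM in library 1 and 18.1, 29.8, 40.9 and 48.6 TPM in library 2, a log2 difference of 1.35 (SE 0.17, limma adjusted p = 0.00509). It too was higher in library 1 in 4 of 4 replicates. So were Srsf6, at a log2 difference of 0.45 (limma adjusted p = 0.0760), and Srsf11, at 0.46 (limma adjusted p = 0.0517). Srsf4 differed by 0.33, and Srsf1, Srsf3, Srsf5, Srsf7 and Srsf10 by -0.33 to -0.030. Srsf2 and Srsf9 were the 2 of 10 SR genes called there, where 8.81% of 11549 genes were called.

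The other CCD groups gave no SR call between their libraries. In CCD UUO at 30 min 0.0181% of genes tested were called, and Srsf2 differed by -0.18 (SE 0.30) and Srsf9 by 0.26 (SE 0.28) on the log2 scale. In CCD sham at 3 h 2.5% were called, and Srsf2 differed by 0.91 (SE 0.18, limma adjusted p = 0.0529) and Srsf9 by 1.09 (SE 0.22, limma adjusted p = 0.0519), with library 1 higher in 4 of 4 replicates for each. Library 1 was also higher in 4 of 4 replicates for Srsf4 at 0.71 (limma adjusted p = 0.0949), Srsf11 at 0.40 and Srsf6 at 0.28. Srsf1, Srsf3, Srsf5, Srsf7 and Srsf10 there differed by -0.16 to 0.14. In CCD UUO at 3 h 0% were called with limma, and 239 genes had an unadjusted p under 0.05. Whether the library difference itself differs between sham and UUO was not tested.

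The obstruction comparison at 30 min differed by the library used. With library 1 alone Srsf2 gave a log2 change of -1.31 (limma adjusted p = 0.00196) and Srsf9 of -1.93 (limma adjusted p = 0.0246), and both were called lower, along with 956 genes called in all. With library 2 alone Srsf2 gave 0.57 (limma adjusted p = 0.513) and Srsf9 -0.84 (limma adjusted p = 0.513), and 1 gene was called in all. The labels do not say how the 2 libraries of a replicate differ.

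**Figure D3:**
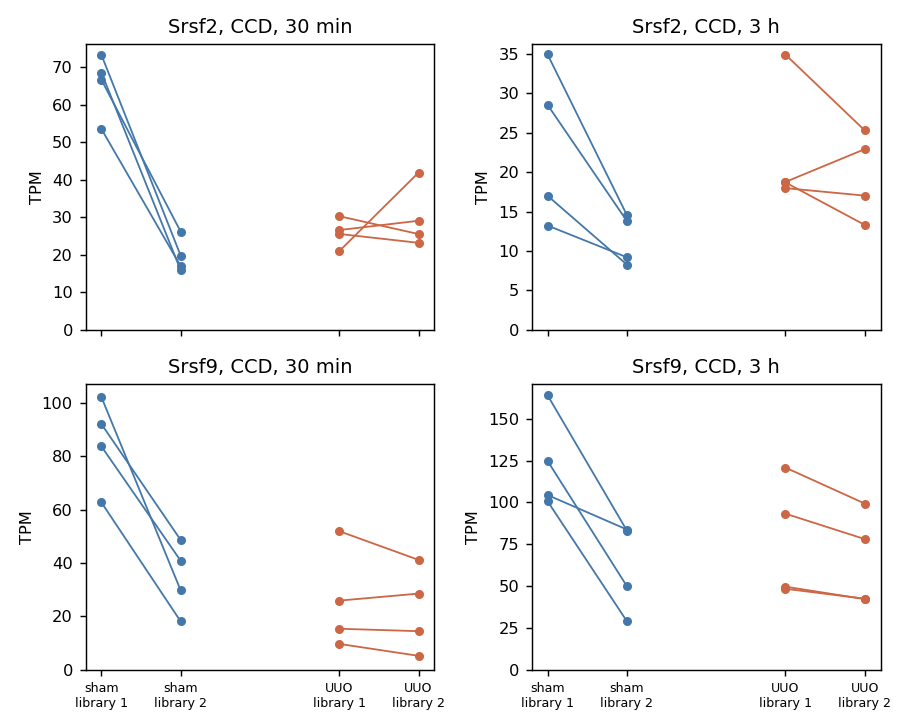
Srsf2 and Srsf9 levels in TPM in library 1 and library 2 of each CCD replicate, with a line joining the 2 libraries of a replicate. In sham at 30 min library 1 is higher for both genes in 4 of 4 replicates; in UUO at 30 min the libraries overlap.

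In CCD at 3 h no SR gene was called with limma, in a comparison where 13% of 10530 genes tested were. Srsf3 was at 186, 256, 178 and 196 TPM in sham and 187, 197, 200 and 208 TPM in UUO. The arms overlapped, and the means were 204 ± 35.5 and 198 ± 8.77 TPM (SD, n = 4), a log2 change of -0.03 (SE 0.12, limma adjusted p = 0.910). Srsf10 came nearest to a call. It was at 42.9, 37.1, 40.6 and 40.5 TPM in sham and 37.5, 26.9, 23.0 and 25.6 TPM in UUO, a log2 change of -0.52 (SE 0.16, limma adjusted p = 0.0561). It was the 1 member with an unadjusted p under 0.05, where 30.9% of all genes tested had one. Only UUO replicate 1 lay within the sham range, and without it Srsf10 was called lower at -0.66 (limma adjusted p = 0.0130). No SR gene had arms without overlap, where 21.3% of all genes tested did.

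None of the remaining changes in CCD at 3 h passed the test. Srsf2 changed by 0.36 (SE 0.27) and Srsf11 by 0.35 (SE 0.17, limma adjusted p = 0.184) on the log2 scale. Srsf11 was at 47.3, 51.6, 35.0 and 36.4 TPM in sham and 44.2, 58.2, 57.5 and 53.5 TPM in UUO, with UUO replicate 1 inside the sham range. Srsf9 changed by -0.31 (SE 0.32), Srsf6 by -0.17, Srsf4 by 0.16, Srsf5 by 0.07, and Srsf1 and Srsf7 by -0.02 each. The median over the 10 was -0.02, against -0.14 over all genes. Median-of-ratios rescaling moved the latter to -0.0028 and left 0 SR genes called. The 9 proximal tubule markers summed to 136 to 667 TPM in CCD sham and 421 to 2570 TPM in CCD UUO at 3 h, and the 4 red blood cell markers to 25.4 to 1187 and 1494 to 7895 TPM, with none at 0 throughout. The 8 principal cell markers, the genes of the main CCD cell type, summed to 15907 to 18653 TPM in sham and 5503 to 10052 TPM in UUO, without overlap. Their part in the SR values, and in the related genes below, was not tested.

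**Figure D4:**
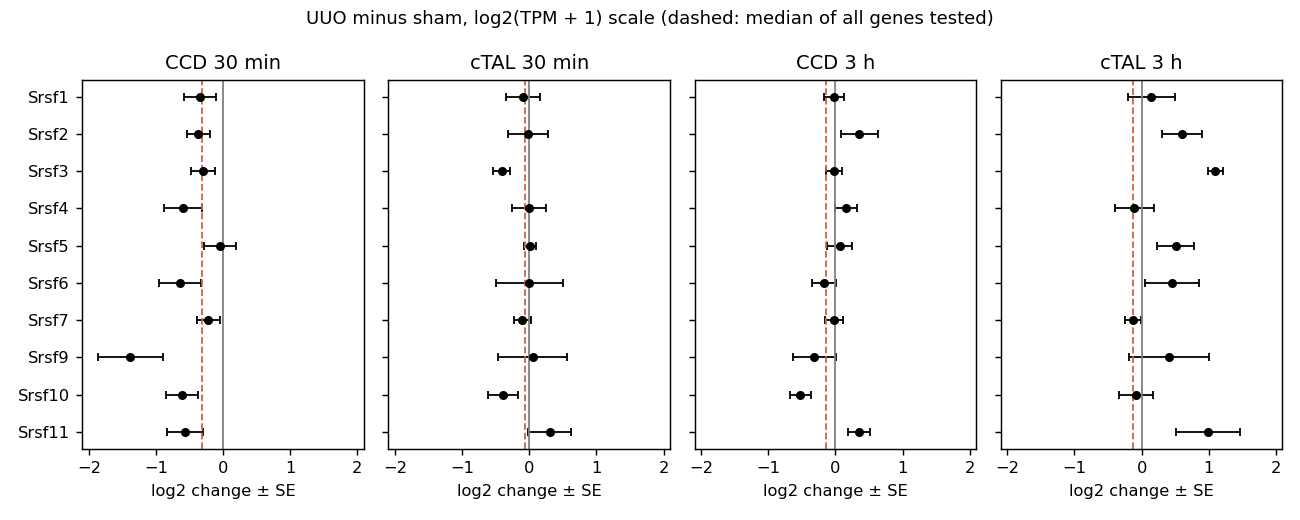
Log2 change of the 10 SR genes, UUO against sham, in CCD and cTAL at 30 min and 3 h, on the log2(TPM + 1) scale with bars of 1 SE, a solid line at 0 and a dashed line at the median of all genes tested. In CCD at 30 min all 10 points lie below 0 (8 of them after median-of-ratios rescaling), where only 13.7% of all genes tested lay above 0 before rescaling. In cTAL at 3 h Srsf3 lies at 1.10, a value on which it was chosen.

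The response of the segments was also compared directly, as CCD minus cTAL within each numbered replicate, UUO against sham. At 30 min 0 of the 10 SR genes were called with limma, and 0% of all 12343 genes were, with 3 and 1817 respectively at an unadjusted p under 0.05. Srsf9 had the lowest adjusted p of the family, with a log2 difference of -1.43 (SE 0.37, limma adjusted p = 0.108). Srsf11 followed at -0.88 (SE 0.27, limma adjusted p = 0.172) and Srsf4 at -0.60 (SE 0.23, limma adjusted p = 0.263). The median was -0.30 for the members and -0.23 over all genes tested. Without UUO replicate 3, Srsf9 at -1.77 (limma adjusted p = 0.0193) and Srsf11 at -1.10 (limma adjusted p = 0.0328) were called, along with 653 genes in all.

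At 3 h 0 of the other 9 SR genes were called in the segment difference, where 1.08% of 11515 genes were. Of the 9, 0 had an unadjusted p under 0.05, where 14.3% of all genes tested had one. The lowest adjusted p was 0.359, for Srsf5 at -0.44 (SE 0.20). The median of the 9 was -0.44, against 0.01 over all genes tested. Srsf3 itself had a log2 difference of -1.13 (SE 0.16), given with no test. The changes that make it up were -0.03 in CCD and 1.10 in cTAL.

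Sham tubules differed by segment in nearly all SR genes. At 30 min 54.9% of 11648 genes were called in either direction, 41.7% higher in CCD than in cTAL and 13.2% lower. Of the 10 SR genes 9 were called higher in CCD and 0 lower. Srsf9 had the largest log2 difference, 2.13 (SE 0.19, limma adjusted p = 1.26e-04), its values running from 40.4 to 70.4 TPM in CCD and from 6.90 to 18.3 TPM in cTAL. Srsf2 followed at 1.72, its 4 values running from 35.2 to 46.5 TPM in CCD and from 6.78 to 11.9 TPM in cTAL, then Srsf11 at 1.54 and Srsf4 at 1.12. For each of Srsf9 and Srsf2 the CCD values lay above all cTAL values. The same held for Srsf1, Srsf4, Srsf10 and Srsf11, while Srsf3, Srsf5, Srsf6 and Srsf7 overlapped. The share of all genes without overlap between the segments was not computed. Srsf6 at 0.82, Srsf1 at 0.81, Srsf10 at 0.80, Srsf3 at 0.48 and Srsf7 at 0.37 were also called. Srsf6 lost the call without replicate 1 (limma adjusted p = 0.0517), and Srsf7 without replicate 2 or 3 (highest limma adjusted p = 0.0651). Without the assumption that a number marks 1 animal, Srsf6 and Srsf7 were not called (limma adjusted p = 0.0554 and 0.0529). Srsf5 was the exception, its values running from 190.4 to 223 TPM in CCD and from 187 to 208 TPM in cTAL, with a log2 difference of 0.04 (SE 0.09, limma adjusted p = 0.765). The 7 macrophage markers summed to 120.2 to 232 TPM in CCD sham and 775 to 1566 TPM in cTAL sham at 30 min, and mitochondrially encoded genes took a median of 17.8% and 28.1% of TPM. Their part in the segment difference was not tested.

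The size of this segment difference moved with the scaling. The median over the members was 0.82 on the log2 scale and over all genes tested 0.30. After median-of-ratios rescaling, which brought the median of all genes to 0.01, 5 SR genes remained called higher, Srsf2, Srsf4, Srsf9, Srsf10 and Srsf11, while Srsf5 was called lower at -0.28 (limma adjusted p = 0.0338). For Srsf6 and Srsf11 library 1 of CCD sham was above library 2 in 4 of 4 replicates, without a call between the libraries. Srsf2 and Srsf9, with the largest segment differences, are the genes called between the CCD sham libraries. Their library 2 values in CCD sham, 15.8 to 26.1 TPM for Srsf2 and 18.1 to 48.6 TPM for Srsf9, can be set beside the cTAL sham values. For Srsf2 all 4 lay above 11.9 TPM, its highest value in cTAL sham. For Srsf9 the lowest of them lay below its highest cTAL sham value, 18.3 TPM, and the other 3 above it.

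At 3 h 38.2% of 10521 genes were called in either direction, 27.7% higher in CCD sham and 10.4% lower. Of the 9 SR genes other than Srsf3, 8 were called higher in CCD sham. Srsf9 again had the largest log2 difference, 1.73 (SE 0.33, limma adjusted p = 0.00794), followed by Srsf11 at 1.10, Srsf4 at 0.94 and Srsf5 at 0.83. Srsf6 at 0.77, Srsf10 at 0.75, Srsf1 at 0.70 and Srsf7 at 0.61 were also called. Srsf2, at 0.84 (SE 0.28, limma adjusted p = 0.0531), was not. Srsf3 had a difference of 0.64, with no test, from 178 to 256 TPM in CCD and 125 to 132 TPM in cTAL. With 1 replicate number left out 4 to 7 of the 9 were called, and 4 was reached without replicate 2. Srsf1 lost the call whichever number was left out, Srsf4 and Srsf11 without replicate 2 or 3, and Srsf6 without replicate 1 or 2, while Srsf2 was called without replicate 3 (limma adjusted p = 0.0294). After median-of-ratios rescaling 3 were called, Srsf4, Srsf5 and Srsf9. In CCD sham at 3 h library 1 was above library 2 in 4 of 4 replicates for Srsf2, Srsf4, Srsf6, Srsf9 and Srsf11. The part of this library difference in the segment difference was not tested. The 7 macrophage markers summed to 134 to 512 TPM in CCD sham and 1781 to 2588 TPM in cTAL sham at 3 h, and their part was not tested.

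The change at 3 h was set against the change at 30 min within each segment. In CCD 0 of 10 SR genes were called, where 1.54% of 11959 genes were. An unadjusted p under 0.05 was found for 3 of the 10, and for 16.5% of all genes tested. All 10 differences lay above 0, where 67.1% of all genes tested did. The median of the 10 was 0.40, against 0.19 over all genes tested. Srsf11 had the lowest adjusted p, with a difference of 0.92 (SE 0.33, limma adjusted p = 0.174). In cTAL 0 of the other 9 were called with limma, where 2.28% of 11765 genes were, and the lowest adjusted p was 0.488, for Srsf5. Of these 9, 0 had an unadjusted p under 0.05, where 16.1% of all genes tested had one. Srsf3 had a difference of 1.51 (SE 0.16) there, made of -0.41 at 30 min and 1.10 at 3 h, with no test.

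The partners of the SR proteins were read from 6 lists of related genes. At 30 min none of them held a gene called with limma in either segment. Of all genes tested there 0.0264% were called in CCD and 0.0091% in cTAL. Each list held 10 to 23 tested genes in CCD and 9 to 22 in cTAL. Per list 1 to 3 genes in CCD and 0 to 1 in cTAL had an unadjusted p under 0.05. Over all genes tested 15.7% had one in CCD and 2.27% in cTAL. The lists were SR protein kinases, phosphatases and import receptors, SR-related and speckle proteins, the factors that recognise splice sites in the core spliceosome, hnRNP proteins, nonsense-mediated decay factors and mRNA export factors. The smallest p in CCD at 30 min belonged to Hnrnpab, with a log2 change of -1.62 (SE 0.29, limma adjusted p = 0.235). In the other lists it belonged to Smg1 at -1.10, Ppp1cc at -0.74, Sf1 at -1.03, Scaf11 at -0.55 and Ddx39b at -0.49. In cTAL at 30 min it belonged to Tra2b, at -0.48 (SE 0.14, limma adjusted p = 1.00), and in the other lists to Hnrnph3 at -0.32, Thoc6 at -0.32, U2af1 at -0.43, Smg1 at 0.54 and Ppp1cc at 0.45. Smg1 averaged 0.865 TPM in cTAL sham and 1.815 TPM in cTAL UUO at 30 min, near the filter limit of 1 TPM. The list medians ran from -0.44 to -0.22 in CCD, against -0.31 over all genes tested. In cTAL the list medians ran from -0.18 to -0.069, against -0.065 over all genes tested.

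In cTAL at 3 h 2 kinases that phosphorylate SR proteins, Clk2 and Clk3, fell. They were the only called genes among the 11 tested of their list, which also holds phosphatases and import receptors and had a median log2 change of -0.18. Of all genes tested there 11.7% were called, 4.06% higher and 7.64% lower, and counts near those shares, here and in the other lists, are no result about a list. Clk3 fell from 65.4 ± 15.0 TPM to 24.1 ± 9.40 TPM (SD, n = 4), a log2 change of -1.49 (SE 0.33, limma adjusted p = 0.0211). Clk2 fell from 123 ± 9.05 to 82.1 ± 5.93 TPM, at -0.57 (SE 0.12, limma adjusted p = 0.0187). Both are kinases of nuclear speckles. Clk3 was no longer called without sham replicate 1 (limma adjusted p = 0.0543), and Clk2 without sham replicate 2, 3 or 4 (highest adjusted p = 0.0637) or after rescaling (adjusted p = 0.0702). Besides the fits without 1 replicate, Clk2 lost the call in 2 of 5 alternative settings, rescaling among them, and Clk3 in 0 of 5.

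Other partners in cTAL at 3 h included a few called genes. Tra2b, an SR-like splicing activator, rose from 38.8 ± 7.22 to 59.9 ± 2.22 TPM (log2 change 0.63, limma adjusted p = 0.0345), the only gene called of 17 SR-related genes tested. Hnrnpa1, an hnRNP that often opposes SR proteins at splice sites, rose from 47.8 ± 6.46 to 77.7 ± 6.99 TPM (log2 change 0.69, limma adjusted p = 0.0190), the only one of 22 hnRNP genes. Of 14 export factors 2 fell, the RNA helicase Ddx39b at -0.69 (limma adjusted p = 0.0388) and the Nxf1 partner Nxt1 at -0.73 (limma adjusted p = 0.0418). Of 14 core spliceosome factors Sf3a3, a subunit of the U2 particle, fell by 0.63 on the log2 scale (limma adjusted p = 0.0284). None of 8 nonsense-mediated decay factors was called, the smallest p being that of Smg6 at -0.65 (limma adjusted p = 0.118). Smg6 averaged 1.59 TPM in sham and 0.66 TPM in UUO, near the filter limit of 1 TPM. The list medians ran from -0.30 for the decay factors to 0.24 for the SR-related genes, against -0.12 over all genes tested. Hnrnpa1 was no longer called without sham replicate 2 or 3 (highest adjusted p = 0.0615). It also lost the call in 1 of 5 alternative settings (limma adjusted p = 0.0646), and Tra2b in 1 of 5 (limma adjusted p = 0.0808). Sf3a3, Tra2b, Ddx39b and Nxt1 each lost the call in 7 of the 8 fits that left out 1 replicate, with adjusted p reaching 0.0700, 0.0949, 0.0983 and 0.117. The exceptions were UUO replicate 1 for Sf3a3, sham replicate 4 for Tra2b, UUO replicate 2 for Ddx39b and sham replicate 1 for Nxt1, without which the call stayed. After median-of-ratios rescaling Sf3a3, Ddx39b and Nxt1 were not called (limma adjusted p = 0.109, 0.0782 and 0.0746). Over the 5 alternative settings, rescaling included, Sf3a3 and Nxt1 each lost the call in 2 and Ddx39b in 3.

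In CCD at 3 h the export factors and the hnRNP genes each held 3 called genes, in a comparison where 13% of all genes were called, 5% higher and 8.04% lower. Of 14 export factors tested 3 fell and 0 rose. Ddx39b fell from 86.1 ± 4.57 to 47.1 ± 4.15 TPM (SD, n = 4), a log2 change of -0.86 (SE 0.10, limma adjusted p = 0.00334), and was called in all 8 fits that left out 1 replicate. Nxf1 fell by 0.99 (limma adjusted p = 0.0152) and Thoc5, a subunit of the THO complex, by 0.62 (limma adjusted p = 0.0170) on the log2 scale, and each lost the call without sham replicate 2 (adjusted p = 0.0516 and 0.0527). Thoc5 also lost it with library 1 or library 2 alone and without the Umod-rich libraries (highest adjusted p = 0.0639). Of 23 hnRNP genes 1 rose and 2 fell. Hnrnpdl rose from 13.2 ± 2.65 to 26.0 ± 1.15 TPM (log2 change 0.94, limma adjusted p = 0.0102). Hnrnpm fell by 0.68 (limma adjusted p = 0.0136) and was not called with library 1 alone (adjusted p = 0.0643). Hnrnpc fell by 0.39 (limma adjusted p = 0.0241) and was not called without sham replicate 1, 2 or 3 or UUO replicate 4 (highest adjusted p = 0.0789) or after rescaling (adjusted p = 0.135). Over the 8 alternative settings, rescaling included, Hnrnpc lost the call in 4. Among 11 kinases and related genes none was called, with Clk4 nearest at 0.46 (limma adjusted p = 0.0520). The 17 SR-related, 14 core spliceosome and 8 nonsense-mediated decay genes tested held none either, the smallest p belonging to Rsrc2 at 0.33, Sf3a1 at -0.46 and Upf3b at -0.26. In these 4 lists 2, 1, 1 and 0 genes had an unadjusted p under 0.05, where 30.9% of all genes tested had one. The list medians ran from -0.12 to -0.0066, against -0.14 over all genes tested.

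The genes whose changes lay nearest to those of Srsf3 were found over its 4 log2 changes, UUO against sham in each segment and time, as the Euclidean distance among 4151 genes whose mean reached 10 TPM in all 8 groups. Ncoa4, a receptor for the breakdown of ferritin, was nearest at a distance of 0.209, followed by Got1, a transaminase, at 0.213. Mat2a, which makes S-adenosylmethionine, came at 0.321, Cdc37l1 at 0.326 and the mitochondrial channel gene Vdac1 at 0.337. Their log2 changes in cTAL at 3 h were 1.06, 1.29, 0.81, 1.20 and 0.85, beside 1.10 for Srsf3. These distances describe the same 4 changes on which Srsf3 was partly chosen.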

How the data were processed

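Rat tubule libraries were made with a SMARTer V4 kit and Nextera XT, per the labels' protocols, which do not state that strand was kept. STAR 2.7.3 and RSEM 1.3.3 with the build Rnor_6.0 are named in the submitters' processing notes. The authors deposited TPM per gene, in 1 table per time, and such values sum all isoforms of a gene, so transcripts with premature stop codons are not separated. The series lists 56 samples, and its 8 whole-kidney samples were not analysed here.

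From the deposited TPM, log2(TPM + 1) was computed, and the 2 libraries of a CCD replicate were averaged. Genes that reached 1 TPM in 4 or more replicates were tested with limma 3.58.1 (R 4.3.3) with a mean-variance trend, and p-values were adjusted by Benjamini-Hochberg over all genes tested, a call being an adjusted p under 0.05. Fits used the arms of 1 segment and time. CCD and cTAL of 1 arm, time and number were taken as 1 animal, an assumption, and the number was a block between segments. Sham and UUO of a number were not paired: deviations of same-numbered samples correlated above 0.1 in all 4 pairs in CCD at 30 min (0.188, 0.148, 0.115 and 0.229), but not in the other 3 comparisons. By that hint alone the numbers of CCD at 30 min would pair. However, sham number 4 there correlated best with a UUO sample of another number. A fit of CCD at 30 min with the number as a replicate block also called 0 SR genes. The procedure was tested on simulated data. Figures were drawn with matplotlib 3.10.9.

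The members and the lists of related genes and markers were chosen with earlier results of these data known. All members were named in every comparison. From each related list up to 4 called genes with the smallest adjusted p were named, or, with none called, the smallest p, and 5 genes nearest to Srsf3. Alternatives were a pseudocount of 0.1, no filter, median-of-ratios rescaling, the replicate block, both segments in 1 fit, each replicate left out, either CCD library alone, and CCD libraries above 5000 TPM of Umod left out.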

Additional observations from a re-analysis of the deposited data

Results flagged for a closer look

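Among 80 sets of 4 replicates (10 genes in 8 groups), 4 held a replicate far from the other 3, and chance alone gives about 1 in 20. Srsf4 in CCD sham at 30 min was at 15.5 TPM in replicate 4, above 9.08 to 9.76 TPM in the others. Srsf2 in cTAL sham at 30 min was at 6.78 TPM in replicate 1, below 11.1 to 11.9 TPM. Srsf7 in CCD UUO at 3 h was at 288 TPM in replicate 3, above 209 to 217 TPM. Srsf5 in cTAL sham at 3 h was at 90.1 TPM in replicate 4, below 135 to 143 TPM.

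Srsf3 in cTAL lay on opposite sides of sham at the times: its log2 change, UUO against sham, was -0.41 at 30 min, with all UUO replicates below sham, and 1.10 at 3 h, with all above. Srsf3 was chosen for the latter value, and the difference between the times was not tested.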

How the results depend on the processing

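For UUO against sham, leaving aside Srsf3 in cTAL at 3 h, the alternatives called no SR gene, except 2 in CCD at 30 min with library 1 alone and Srsf10 in CCD at 3 h without UUO replicate 1, a range of 0 to 1 over fits without 1 replicate. In the segment difference at 30 min those fits gave 0 to 2 SR genes and 0 to 653 genes in all. Between sham segments at 3 h SR calls numbered 4 to 7 in those fits, 5 with no filter and 3 after median-of-ratios rescaling.

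Counts over all genes moved more. In CCD at 30 min, leaving out 1 replicate gave 1 to 2 genes, library 1 alone 956 and library 2 alone 1, against 3. In cTAL at 30 min it gave 0 to 1, and both segments in 1 fit 3, against 1. In CCD at 3 h, against 1373, it gave 458 to 1596, no filter 852, the replicate block 770, both segments in 1 fit 855, library 1 alone 676 and library 2 alone 490. In cTAL at 3 h, against 1173, it gave 439 to 988, no filter 760, the replicate block 580 and both segments in 1 fit 2234. In the segment difference at 3 h, against 124, it gave 17 to 105, a pseudocount of 0.1 gave 71 and no filter 20. Between sham segments at 3 h it gave 2218 to 3073 genes, against 4015. For the time difference it gave 35 to 258 in CCD, where a pseudocount of 0.1 gave 85 and no filter 35, against 184, and 149 to 322 in cTAL, against 268. No filter tests more genes, and fits without a replicate hold fewer samples; the cause of the other moves was not tested. Median-of-ratios rescaling turned 526 higher and 847 lower into 710 and 435 in CCD at 3 h, 407 and 766 into 519 and 408 in cTAL at 3 h, 4859 and 1541 into 3165 and 2658 between sham segments at 30 min, and 2916 and 1099 into 1651 and 1679 at 3 h. The replicate block called 0 SR genes in all 4 UUO comparisons, and without the block between sham segments 7 SR genes were called at 30 min and 6 at 3 h.

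Of 1147 values of single genes under an alternative, 71 changed sign, 1 of them called, Srsf5 between sham segments at 30 min at -0.28 after rescaling. Rescaling also gave Srsf5 0.25 and Srsf7 0.071 in CCD at 30 min, Srsf2 0.057, Srsf4 0.066 and Srsf6 0.079 in cTAL at 30 min, Srsf1 0.12, Srsf3 0.13 and Srsf7 0.13 in CCD at 3 h, Srsf4 0.024, Srsf7 0.037 and Srsf10 0.075 in cTAL at 3 h, and Srsf5 0.15 and Srsf7 0.097 in the segment difference at 30 min. Library 1 alone gave Srsf5 0.27 in CCD at 30 min, and Srsf2 -0.0089, Srsf3 0.048, Srsf4 -0.34 and Srsf7 0.19 in CCD at 3 h. Library 2 alone gave Srsf2 0.57 in CCD at 30 min, and Srsf1 0.042, Srsf5 -0.023 and Srsf9 0.11 in CCD at 3 h. With library 1 alone for UUO replicate 2, whose library 2 held 8744 genes, Srsf5 was at 0.075 in CCD at 30 min, and without the libraries rich in Umod Srsf7 was at 0.013 in CCD at 3 h. Leaving out 1 replicate gave ranges that crossed 0, from -0.24 to 0.19 for Srsf5 in CCD at 30 min; in cTAL at 30 min from -0.30 to 0.038 for Srsf1, -0.19 to 0.23 for Srsf2, -0.18 to 0.16 for Srsf4, -0.023 to 0.055 for Srsf5, -0.44 to 0.34 for Srsf6 and -0.41 to 0.35 for Srsf9. In CCD at 3 h they ran from -0.076 to 0.042 for Srsf1, -0.092 to 0.089 for Srsf3, -0.062 to 0.19 for Srsf5 and -0.14 to 0.027 for Srsf7. In cTAL at 3 h they ran from -0.12 to 0.30 for Srsf1, -0.25 to 0.038 for Srsf4, -0.042 to 0.98 for Srsf9 and -0.21 to 0.12 for Srsf10. In the segment difference they ran from -0.024 to 0.20 for Srsf3 and -0.26 to 0.14 for Srsf5 at 30 min and -0.34 to 0.16 for Srsf1 at 3 h, and between sham segments at 30 min from -0.031 to 0.10 for Srsf5. TPM carry no depth, so low members such as Srsf4 and Srsf1 have an unknown counting error.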
